A study of Homo sapiens with 6 samples.

Results

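The urokinase system and its inhibitors were described in 2 related human cancer lines, PC-3/Mc and PC-3/S. Both names mark them as derivatives of PC-3, a prostate carcinoma line established from a bone metastasis. The set was defined by 9 gene symbols (PLAU, PLAUR, PLAT, SERPINE2, SERPINB2, SERPINB5, TFPI, TFPI2 and HPSE), and every probe set whose platform annotation gives 1 of them alone was taken, whatever its value. The study concerns the epithelial-mesenchymal transition and tumor initiation. The rule gave 19 probe sets of 54613 that are not controls, for 8 of the 9 genes. SERPINB2 was not analysed here. Total RNA from cells harvested before confluence was hybridised to 6 one-colour Affymetrix arrays, 3 labelled as biological replicates of PC-3/Mc and 3 of PC-3/S. Neither line has a treatment or a transgene in its labels, which give only the line names. Each group is 1 line, so the comparison is between these lines, and nothing in the labels ties the replicates to separate cultures. P-values therefore measure only the spread between these arrays, which may be technical.

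Urokinase, encoded by PLAU, is a secreted serine protease that binds its cell-surface receptor, encoded by PLAUR, and converts plasminogen to plasmin, a broad protease that degrades fibrin and pericellular matrix. Tissue-type plasminogen activator, encoded by PLAT, activates the same substrate, mainly on fibrin. Serpins trap such proteases in inactive complexes, Kunitz-type inhibitors such as TFPI and TFPI2 block plasmin or the coagulation proteases, and heparanase (HPSE) cuts the heparan sulfate chains that hold many of these proteins at the cell surface. Tumor cells commonly make several of these proteins, which have long been studied for their part in invasion.

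Values are log2 expression as the authors deposited it, a difference is the PC-3/Mc value less the PC-3/S value on that scale, and each mean ± SD or difference ± SE rests on n = 3 arrays per line. Adjusted p-values are from limma over all 54613 probe sets with Benjamini-Hochberg adjustment, and a probe set was called at an adjusted p under 0.05. Array medians lay between 4.98 and 5.09, and arrays of the same line correlated at 0.995 to 0.997, against 0.949 to 0.952 between lines. CTNNA1, known to be deleted in PC-3, read at most 5.18 on any of its probe sets, and readings up to that level are treated as possibly background. All 6 epithelial markers lay above it in PC-3/Mc, against 5 of 6 in PC-3/S, where CDH1 did not, and their summed linear level ran from 13060 to 13410 in PC-3/Mc and from 6818 to 7048 in PC-3/S. EPCAM (5.44), CDH1 (3.68), KRT18 (1.16) and KRT8 (1.03) were higher in PC-3/Mc by the differences given, and KRT7 (-1.54) and KRT19 (-0.48) lower. Of 4 luminal prostate markers measured, 3 passed the level in each line, and they summed to 196.9 to 247.3 in PC-3/Mc and 237.9 to 266 in PC-3/S. TMPRSS2 (-0.41) was called lower in PC-3/Mc. KLK3 (6.39 in PC-3/Mc, 6.73 in PC-3/S) and KLK2 (5.37 in PC-3/Mc, 5.49 in PC-3/S) were not called, and ACP3 was under the level in both lines. Leukocyte markers passed the level for 0 of 4 genes in either line. Of the fibroblast markers 2 of 6 passed it in PC-3/Mc, against 3 of 6 in PC-3/S. Their summed linear level ran from 646.3 to 670.5 in PC-3/Mc and from 350.6 to 378.7 in PC-3/S, and COL1A2 was at 8.48 in PC-3/Mc against 4.36 in PC-3/S. COL1A1 (-0.28) and DCN (-0.44) were called lower in PC-3/Mc, PDGFRB was called higher at levels under 5.18, and THY1 and PDGFRA were not called. Endothelial markers passed for 2 of 5 genes in PC-3/Mc, against 3 of 5 in PC-3/S, and summed to 245.5 to 264.8 in PC-3/Mc and 265.2 to 282.3 in PC-3/S. PECAM1 was at 7.18 in PC-3/Mc against 6.58 in PC-3/S, KDR at 4.06 in PC-3/Mc against 6.23 in PC-3/S and CLDN5 at 5.53 in PC-3/Mc against 5.77 in PC-3/S, while VWF and CDH5 were under the level in both lines. Platelet markers passed for 3 of 4 genes in each line and summed to 142.7 to 187.9 in PC-3/Mc and 216.5 to 233.5 in PC-3/S. PF4 (-1.12) and ITGA2B (-0.26) were lower in PC-3/Mc, GP9 was not called, and PPBP was under the level. Hepatocyte markers passed for 2 of 4 genes in each line, with ALB and FGB under the level and 0 of 4 called. The part of these markers in the results was not tested.

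The sequences upstream of TFPI, SERPINB5, TFPI2 and PLAU, the genes whose probe sets differed most, are shown with that of PLAUR, for which 2 of 3 probe sets were not called, so that the start regions can be set side by side. Each is the 250 bases before an annotated start, from RefSeq on GRCh38.p14, read in the direction of the gene. Capitals mark matches on either strand to a loose AP-1 pattern (TGANTCA, with any base at N), a GC box (GGGCGG) or an E-box bound by zinc finger repressors (CACCTG), and neighbouring matches may overlap. The TFPI window is chr2:187554436-187554685 on the minus strand, SERPINB5 is chr18:63476708-63476957 on the plus strand, TFPI2 is chr7:93890754-93891003 on the minus strand, PLAU is chr10:73910882-73911131 on the plus strand and PLAUR is chr19:43670170-43670419 on the minus strand.
TFPI: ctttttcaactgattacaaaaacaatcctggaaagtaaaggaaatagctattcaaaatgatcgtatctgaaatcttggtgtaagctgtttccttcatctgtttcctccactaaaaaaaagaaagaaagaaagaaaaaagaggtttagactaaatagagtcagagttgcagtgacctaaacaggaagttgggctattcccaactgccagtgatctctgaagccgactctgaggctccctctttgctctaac
SERPINB5: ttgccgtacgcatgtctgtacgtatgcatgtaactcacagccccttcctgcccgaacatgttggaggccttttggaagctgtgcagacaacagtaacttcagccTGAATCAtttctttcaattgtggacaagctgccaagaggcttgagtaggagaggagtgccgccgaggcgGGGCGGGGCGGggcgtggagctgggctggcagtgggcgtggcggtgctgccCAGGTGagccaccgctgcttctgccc
TFPI2: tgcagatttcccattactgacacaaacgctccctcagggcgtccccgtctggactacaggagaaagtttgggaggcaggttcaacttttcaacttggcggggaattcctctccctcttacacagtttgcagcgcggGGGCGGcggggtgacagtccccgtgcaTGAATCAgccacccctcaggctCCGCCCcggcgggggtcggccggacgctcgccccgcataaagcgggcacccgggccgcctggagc
PLAU: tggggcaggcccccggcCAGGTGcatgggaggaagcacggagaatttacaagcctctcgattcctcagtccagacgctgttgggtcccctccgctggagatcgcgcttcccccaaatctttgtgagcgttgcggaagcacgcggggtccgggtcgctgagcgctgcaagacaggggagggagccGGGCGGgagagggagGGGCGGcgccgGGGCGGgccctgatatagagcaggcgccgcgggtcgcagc
PLAUR: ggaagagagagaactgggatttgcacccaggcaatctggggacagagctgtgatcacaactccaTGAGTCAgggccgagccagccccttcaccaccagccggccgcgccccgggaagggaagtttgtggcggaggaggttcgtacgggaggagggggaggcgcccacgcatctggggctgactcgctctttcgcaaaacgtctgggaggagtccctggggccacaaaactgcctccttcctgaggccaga
The AP-1 letters occurred once each in the SERPINB5 window (TGAATCA, from position -146, counted back from the start), the TFPI2 window (TGAATCA, -87) and the PLAUR window (TGAGTCA, -186). They did not occur in the TFPI or PLAU windows shown. Of 35116 such windows in the RefSeq table, 6.57% hold the loose AP-1 pattern, 42.6% the GC box and 17.5% the E-box. GC boxes numbered 3 in the PLAU window, 2 in SERPINB5, 2 in TFPI2, 0 in TFPI and 0 in PLAUR, and the E-box letters occurred in PLAU (-233) and SERPINB5 (-26). Over all 11 windows of the 7 genes found in the table, the AP-1 letters were in 3 windows, the GC box in 7 and the E-box in 2. Both SERPINE2 windows and 2 of the 3 HPSE windows held GC boxes and neither of the other motifs. The TFPI window, a further PLAU window and the remaining HPSE window held none of the 3. A match is a run of letters and not evidence of a bound site.

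At least 2-fold differences were found for SERPINB5, SERPINE2 and HPSE on 1 probe set each, higher in PC-3/Mc, and for both probe sets of TFPI2 and PLAU and 2 of TFPI, lower in PC-3/Mc. Of the 19 probe sets 14 were called, 5 higher and 9 lower in PC-3/Mc, or 73.7%, where 35.9% of all probe sets were called. The 2-fold differences made 9 of the 19, against 8.35% of all probe sets. No overlap between lines was seen for 14 of the 19, against 45.3% of all probe sets. The median difference was -0.02 over the 19 probe sets and -0.01 over all, while the median size of the difference was 0.78 and 0.18. The genes were listed with earlier results of these arrays known, so these shares are a description and not a test. In bulk RNA, fewer cells making a transcript and less of it per cell cannot be told apart.

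**Figure D1:**
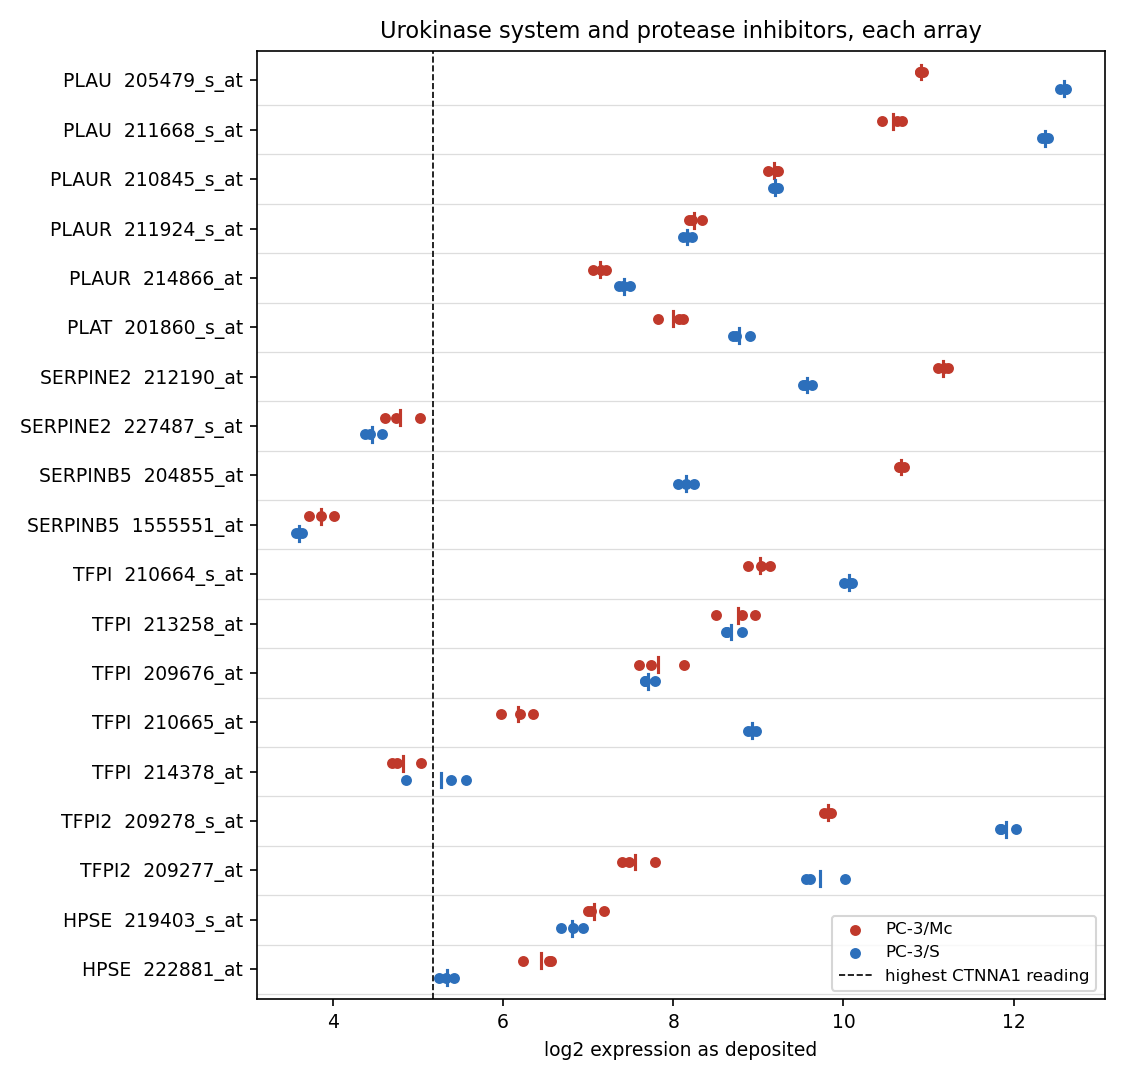
Log2 expression as deposited (horizontal axis) of each of the 19 probe sets in the 3 PC-3/Mc arrays (red, upper row) and the 3 PC-3/S arrays (blue, lower row), with vertical ticks at the means and a dashed line at the highest CTNNA1 reading (5.18). The PLAU and TFPI2 points of PC-3/Mc lie left of those of PC-3/S, the SERPINE2 212190_at and SERPINB5 204855_at points lie right of them, and 2 probe sets lie under the dashed line in both lines.

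Both PLAU probe sets were lower in PC-3/Mc by more than 3-fold. Probe set 205479_s_at read 10.93, 10.90 and 10.90 in PC-3/Mc replicates 1 to 3, against 12.62, 12.54 and 12.61 in PC-3/S. The arrays of each line lay within a narrow band and the bands were far apart. Its difference was -1.68 ± 0.08 (SE), a 3.20-fold lower level, with a limma adjusted p of 1.2e-08. Probe set 211668_s_at read 10.45, 10.62 and 10.69 in PC-3/Mc, against 12.37, 12.33 and 12.40 in PC-3/S. Here too every PC-3/Mc array was below every PC-3/S array, and the difference was -1.78 ± 0.09 (limma adjusted p = 1.8e-08). Leaving out each array in turn kept the differences between -1.83 and -1.66.

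The urokinase receptor had 1 call among 3 probe sets. PLAUR probe set 210845_s_at read 9.23, 9.11 and 9.21 in PC-3/Mc, against 9.17, 9.23 and 9.19 in PC-3/S, and the lines overlapped. Its difference of -0.02 had a 95% confidence interval from -0.20 to 0.17 and was not called (limma adjusted p = 0.91). For 211924_s_at the difference was 0.09, with an interval from -0.10 to 0.28 (limma adjusted p = 0.50). Probe set 214866_at read 7.16, 7.06 and 7.21 in PC-3/Mc, against 7.36, 7.41 and 7.49 in PC-3/S, without overlap. That probe set was lower by a difference of -0.28 ± 0.09 (limma adjusted p = 0.024), but the call was lost with arrays centred on their medians (adjusted p = 0.068), without PC-3/Mc replicate 2 (0.083) and without PC-3/S replicate 2 (0.062) or 3 (0.086).

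Tissue-type plasminogen activator was lower as well, on its single probe set, 201860_s_at. PLAT read 8.07, 8.11 and 7.82 in PC-3/Mc, against 8.70, 8.74 and 8.90 in PC-3/S, with no overlap. The difference was -0.78 ± 0.10, or 1.71-fold (limma adjusted p = 6.4e-05). Both plasminogen activator genes were thus lower in PC-3/Mc.

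**Figure D2:**
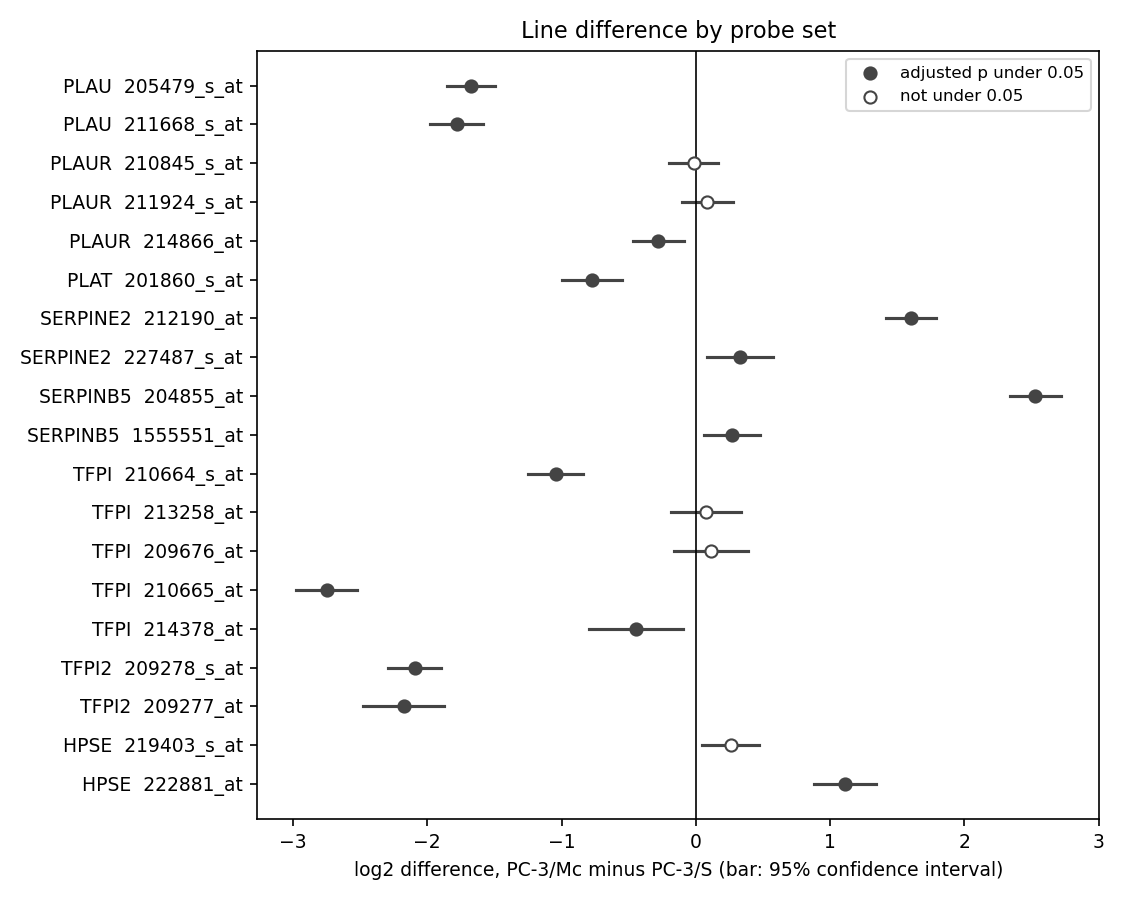
Log2 difference PC-3/Mc minus PC-3/S (horizontal axis) for each probe set, with its 95% confidence interval from limma. Filled points had an adjusted p under 0.05; the PLAU and TFPI2 pairs coincide closely, whereas the TFPI points spread from -2.75 to 0.11.

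The 2 serpin genes of the listed set that were measured, SERPINE2 and SERPINB5, were higher in PC-3/Mc. SERPINE2 encodes protease nexin-1, a secreted inhibitor of thrombin, urokinase and tissue-type plasminogen activator. Its probe set 212190_at read 11.22, 11.18 and 11.11 in PC-3/Mc, against 9.55, 9.52 and 9.63 in PC-3/S. All PC-3/Mc arrays were above all PC-3/S arrays, and the difference was 1.60 ± 0.08, or 3.04-fold (limma adjusted p = 2.5e-08). The other SERPINE2 probe set, 227487_s_at, lay at 4.79 ± 0.21 in PC-3/Mc, against 4.46 ± 0.10 in PC-3/S, under 5.18 in both lines. Its difference of 0.33 was called (limma adjusted p = 0.039), but not without PC-3/Mc replicate 2 (0.21, adjusted p = 0.16), PC-3/S replicate 1 (adjusted p = 0.14) or PC-3/S replicate 3 (adjusted p = 0.094).

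SERPINB5 encodes maspin, a serpin of epithelial cells that does not inhibit proteases in the classical way. Probe set 204855_at read 10.67, 10.72 and 10.65 in PC-3/Mc, against 8.15, 8.06 and 8.25 in PC-3/S. The PC-3/Mc arrays were all higher, by 2.53 ± 0.09 or 5.76-fold (limma adjusted p = 5.9e-10), the largest rise among the 19 probe sets. Probe set 1555551_at read 3.87 ± 0.15 in PC-3/Mc, against 3.60 ± 0.04 in PC-3/S, under 5.18 throughout. Its difference of 0.27 had a limma adjusted p of 0.048, and the call was lost on leaving out PC-3/Mc replicate 1 or 3 or any 1 PC-3/S array (adjusted p = 0.076 to 0.17).

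SERPINB5 lies at one end of a run of clade B serpin genes on chromosome 18, in the gene order of the RefSeq table. Of 10 genes in that run 9 had a probe set, with 1 higher in PC-3/Mc, 2 lower and 6 not called, all 6 of them at or under 5.18 in both lines. Over all genes, read by the probe set of the highest mean in the same fit, 43.7% were called. The run was added after its values were seen, so the count is a description and not a test. SERPINB7 (megsin), further along the run, moved opposite to SERPINB5. It read 6.36, 6.69 and 6.60 in PC-3/Mc, against 10.91, 10.96 and 10.98 in PC-3/S, a difference of -4.40 ± 0.10 or 21.1-fold (limma adjusted p = 1.9e-11). SERPINB8, at the other end, was at 7.98 ± 0.07 in PC-3/Mc, against 8.24 ± 0.02 in PC-3/S (-0.25, limma adjusted p = 0.033).

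TFPI2, a Kunitz-type inhibitor deposited in the matrix that blocks plasmin, was lower on both probe sets. Probe set 209278_s_at read 9.86, 9.77 and 9.81 in PC-3/Mc, against 11.86, 11.84 and 12.03 in PC-3/S. With 209277_at the values were 7.39, 7.79 and 7.48 in PC-3/Mc, against 9.56, 9.61 and 10.02 in PC-3/S. Neither overlapped between lines. The differences were -2.09 ± 0.09 (4.27-fold, limma adjusted p = 3.7e-09) and -2.18 ± 0.14 (4.52-fold, limma adjusted p = 1.1e-07).

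TFPI, the Kunitz-type inhibitor of factor Xa and of the tissue factor complex, gave different results by probe set. Probe set 210665_at read 6.35, 6.20 and 5.97 in PC-3/Mc, against 8.88, 8.97 and 8.93 in PC-3/S, the largest fall of the 19 at -2.75 ± 0.10 or 6.73-fold (limma adjusted p = 1.4e-09). Probe set 210664_s_at read 9.04, 9.14 and 8.88 in PC-3/Mc, against 10.01, 10.08 and 10.10 in PC-3/S, a difference of -1.04 ± 0.09 (limma adjusted p = 2.2e-06). The platform annotation ties these 2 probe sets, and no other member, to the same sequence record. By contrast 213258_at read 8.81, 8.96 and 8.50 in PC-3/Mc, against 8.62, 8.63 and 8.80 in PC-3/S, overlapping, with a difference of 0.07 and an interval from -0.18 to 0.33 (limma adjusted p = 0.69). Likewise 209676_at differed by 0.11, with an interval from -0.16 to 0.39 (limma adjusted p = 0.54). The dim 214378_at read 4.82 ± 0.18 in PC-3/Mc, against 5.27 ± 0.37 in PC-3/S, and its arrays overlapped. Its call (-0.45, limma adjusted p = 0.049) was lost under quantile normalization (0.094), with arrays centred (0.085), and without PC-3/Mc replicate 2 (0.16) or 3 (0.11) or PC-3/S replicate 1 (0.16) or 3 (0.19).

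**Figure D3:**
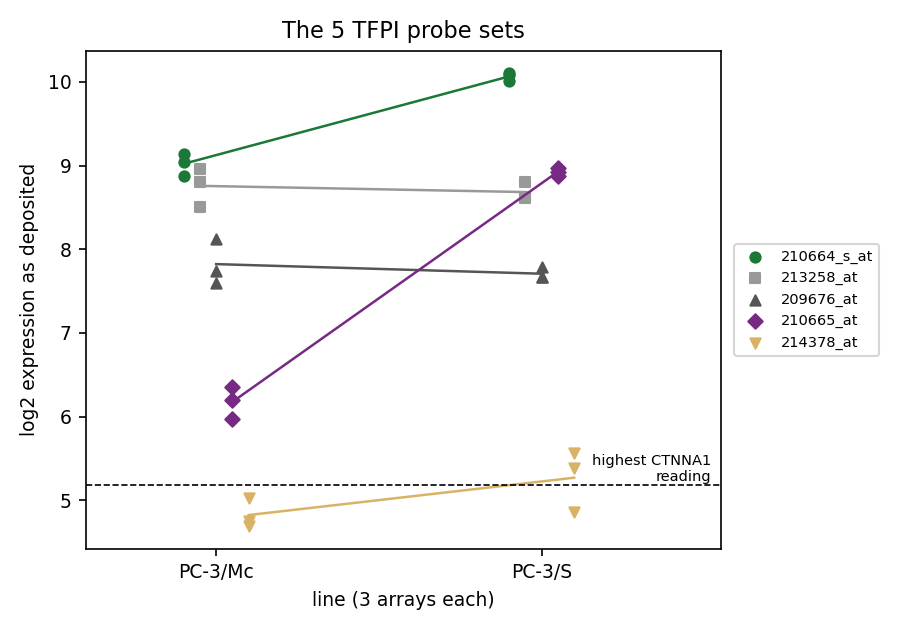
Log2 expression as deposited (vertical axis) of the 5 TFPI probe sets in PC-3/Mc (left) and PC-3/S (right), 3 arrays each, with lines joining the means. The lines of 210665_at and 210664_s_at slope, with differences of -2.75 and -1.04, while those of 213258_at and 209676_at are nearly level at 0.07 and 0.11.

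Within a gene, the line difference of one probe set was set against that of another, array by array. Of 18 such pairs over 7 genes, 12 had per-array values that did not overlap between the lines. The exact two-sided permutation p was 0.1 in each of the 12, the smallest that 3 arrays against 3 allow, so no pair could pass 0.05, adjusted or not. The TFPI pairs, like the PLAUR pairs, reuse the same probe sets and are not independent. No share over all same-gene pairs of the array was computed, so the count of 12 is only a description. The SERPINE2 and SERPINB5 pairs each set a bright probe set against a dim one under 5.18 in both lines, which may be background. For TFPI, the log2 differences of 210665_at and 209676_at lay 2.86 apart (exact p = 0.1), whereas those of 213258_at and 209676_at lay 0.04 apart (exact p = 0.6). Those of the 2 PLAU probe sets lay 0.10 apart (exact p = 0.2) and those of the TFPI2 pair 0.08 apart (exact p = 0.6).

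Heparanase was higher in PC-3/Mc on 1 of its 2 probe sets. HPSE 222881_at read 6.57, 6.54 and 6.23 in PC-3/Mc, against 5.33, 5.25 and 5.42 in PC-3/S, close to the 5.18 level. The arrays did not overlap, and the difference was 1.11 ± 0.11 or 2.16-fold (limma adjusted p = 4.1e-06). For 219403_s_at the values were 7.19, 6.99 and 7.03 in PC-3/Mc, against 6.69, 6.82 and 6.94 in PC-3/S, again without overlap. The difference of 0.26 ± 0.10 was not called (limma adjusted p = 0.059). It was called with arrays centred (adjusted p = 0.036), without dim probe sets (0.041) and without PC-3/S replicate 3 (0.039).

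With 1 probe set per gene, that of the highest mean, 7 of 8 genes were called, PLAUR being the exception, where 45.9% of 19775 genes were. HPSE was read by 219403_s_at and was called in this fit of fewer features (limma adjusted p = 0.043), but not over all probe sets (0.059). When names with _x_at or _s_at were barred, 6 genes could be read and 5 of them were called, against 40.4% of genes. PLAU and PLAT, which had only _s_at probe sets, could not be read this way. TFPI was then read by 213258_at and had no call (0.07, limma adjusted p = 0.67), while PLAUR was read by 214866_at and was called (-0.28, limma adjusted p = 0.021).

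**Figure D4:**
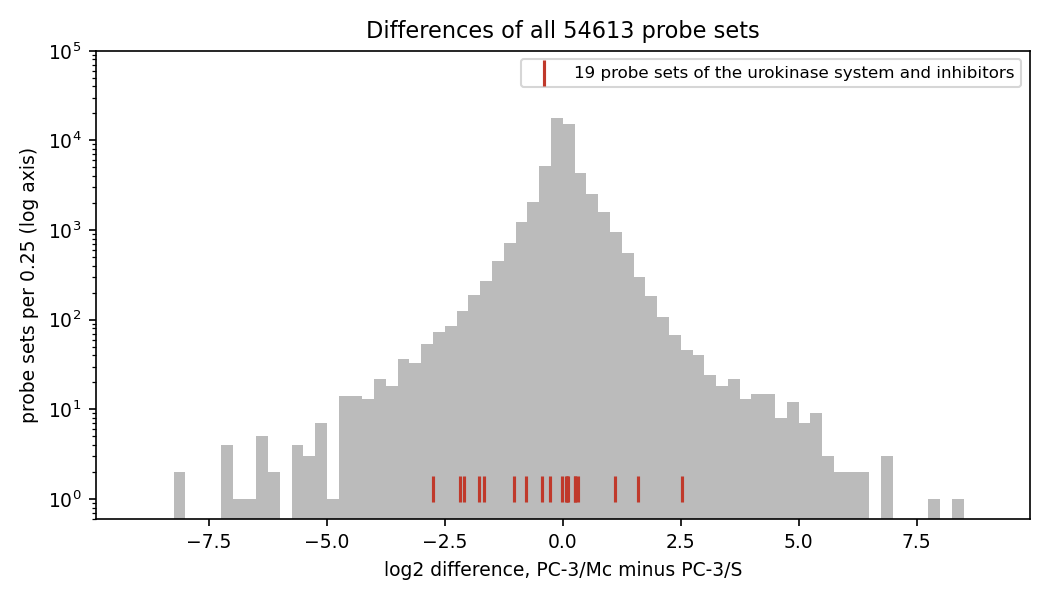
Number of probe sets (vertical log axis) by log2 difference PC-3/Mc minus PC-3/S in steps of 0.25 (horizontal axis) for all 54613 probe sets, with red ticks for the 19 probe sets described. The ticks run from -2.75 to 2.53, inside the range of the whole array.

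Related genes outside the set were read from 7 lists. These covered plasminogen binding, other serpins, coagulation, other inhibitors, pericellular proteases, heparan sulfate enzymes and the Ly6/uPAR family. Each gene stood for its probe set of the highest mean, in the same fit. Of 139 listed genes 131 were measured; 26 were higher in PC-3/Mc, 31 lower and 74 not called. The share called was 43.5%, where it was 43.7% over all genes read that way (22.3% higher and 21.4% lower), so the lists as a whole did not stand above the background. Of the 131 genes, 57 lay at or under 5.18 in both lines.

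Among the 19 measured genes of plasminogen activation and binding, 5 were higher, 3 lower and 11 not called, with a median difference of -0.05. Plasminogen itself (PLG) read 5.05 ± 0.16 in PC-3/Mc, against 4.99 ± 0.19 in PC-3/S, under 5.18 and not called (limma adjusted p = 0.73). The subunits of the annexin complex that binds plasminogen, ANXA2 and S100A10, differed by -0.08 and -0.07 and were not called (limma adjusted p = 0.51 and 0.61). SERPINI1 (neuroserpin), an inhibitor of tissue-type plasminogen activator, was 2.30-fold higher in PC-3/Mc at 7.66 ± 0.20 against 6.46 ± 0.15 in PC-3/S (limma adjusted p = 4.7e-06). Of the endocytic receptors that clear protease-serpin complexes, LRP1 was lower by a difference of -0.38 (6.33 ± 0.08 in PC-3/Mc, 6.71 ± 0.08 in PC-3/S). VLDLR was at least 3.09-fold higher, at 6.80 ± 0.19 in PC-3/Mc against 4.01 ± 0.13 in PC-3/S, the fold being taken against 5.18. MRC2, a collagen receptor that associates with the urokinase receptor, was 4.95-fold lower at 6.35 ± 0.06 in PC-3/Mc against 8.66 ± 0.07 in PC-3/S.

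Of 18 other serpins 2 were higher, 4 lower and 12 not called (median -0.12). At or under 5.18 in both lines were 12 of the 18, among them SERPINB9, which was called higher. SERPINB1, an inhibitor of neutrophil proteases, was 3.17-fold higher (1.66 ± 0.10). Besides SERPINB7, SERPIND1 (heparin cofactor II, -1.79 ± 0.09) and the collagen chaperone SERPINH1 (-1.98 ± 0.09) were lower. In the coagulation list 2 of 16 were higher, 3 lower and 11 not called (median -0.06). Of these 16, 10 lay at or under 5.18 in both lines, among them PROC, called higher, and F2RL2, called lower. Tissue factor (F3), the target of TFPI, was higher by 0.77 ± 0.11, at 6.21 ± 0.13 in PC-3/Mc against 5.45 ± 0.16 in PC-3/S (limma adjusted p = 9.4e-05). Protein S (PROS1), a cofactor of TFPI, was 2.88-fold lower.

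Of 19 other protease inhibitors 5 were higher, 4 lower and 10 not called (median -0.06). The secreted leukocyte protease inhibitor SLPI read 9.63, 9.62 and 9.72 in PC-3/Mc, against 6.25, 5.94 and 5.85 in PC-3/S, 12.5-fold higher (limma adjusted p = 1.7e-10). Elafin (PI3), an elastase inhibitor, was 2.14-fold higher. APP, which has Kunitz-domain forms, was lower by a difference of -1.69 ± 0.13 and cystatin C (CST3), which inhibits cysteine proteases, by -1.36 ± 0.10. The cysteine protease inhibitor CSTA was called lower (-1.18) at levels under 5.18 in both lines. Pericellular proteases gave 2 higher, 6 lower and 9 not called of 17 (median -0.05). The secreted serine protease PRSS23 read 5.22, 5.34 and 5.65 in PC-3/Mc, against 10.54, 10.46 and 10.66 in PC-3/S, 35.6-fold lower (limma adjusted p = 1.7e-11). Its PC-3/Mc readings were close to the 5.18 level, so the size of that fold is uncertain.

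Enzymes of heparan sulfate, the substrate of heparanase, gave 7 higher, 7 lower and 12 not called of 26 (median 0.08). The sulfotransferase HS3ST3A1 read 9.36, 9.29 and 9.18 in PC-3/Mc, against 4.35, 4.23 and 4.15 in PC-3/S, at least 17.1-fold higher (limma adjusted p = 3.4e-12). Another sulfotransferase, HS6ST2, went the other way, at 3.93, 3.63 and 3.84 in PC-3/Mc against 8.34, 8.26 and 8.48 in PC-3/S, at least 9.08-fold lower (limma adjusted p = 1.7e-11). The epimerase GLCE was at 6.17 ± 0.27 in PC-3/Mc, against 4.98 ± 0.30 in PC-3/S, under 5.18, which gives at least 1.997-fold (limma adjusted p = 6.8e-05). The sulfotransferase HS2ST1 (1.37 ± 0.10) was higher, and the chain polymerase EXT1 (-1.36 ± 0.09) and the lysosomal glucuronidase GUSB (-1.89 ± 0.09) were lower. In the Ly6/uPAR family, to which the urokinase receptor belongs, 3 of 16 were higher, 4 lower and 9 not called (median -0.08). A called 2-fold difference was found for 0 of the 16, where 8.35% of all probe sets had one. At or under 5.18 in both lines were 10 of the 16, among them LYPD1, LYPD6 and LYPD6B, which were called lower. The lack of 2-fold differences is therefore not read as a result about the family.

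**Figure D5:**
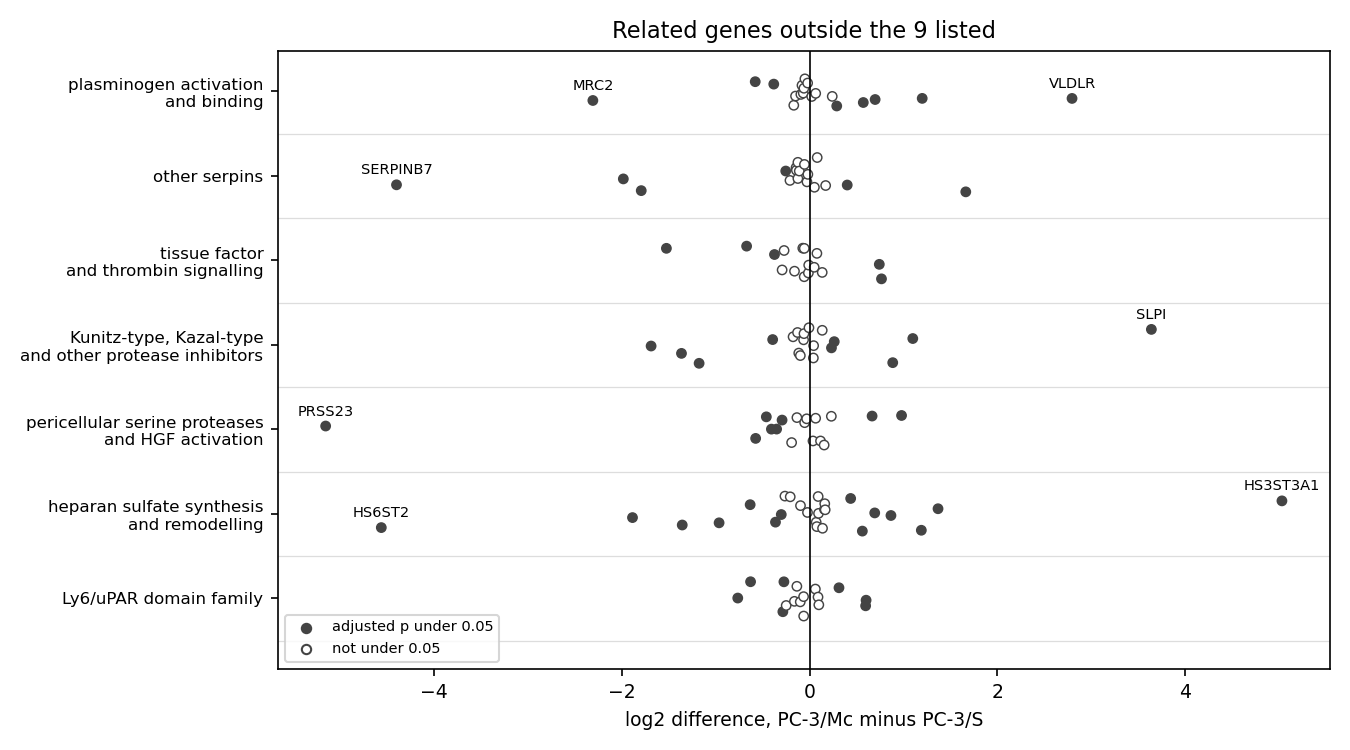
Log2 difference PC-3/Mc minus PC-3/S (horizontal axis) of the 131 measured genes in the 7 lists (rows; vertical scatter within a row carries no meaning), filled where the adjusted p was under 0.05. Labels mark named genes of at least 4-fold difference, from PRSS23 at -5.15 to HS3ST3A1 at 5.03.

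The genes whose values over the 6 arrays lay nearest those of 4 members were found by Euclidean distance between values centred on each probe set's mean, among 19775 genes. For PLAU they were GDF15 (distance 0.076, difference -1.66) and SSBP2 (0.096, -1.65). For SERPINE2 they were PCGF3 (0.050, 1.62) and BCCIP (0.071, 1.60). SERPINB5 was nearest to PRRT3-AS1 (0.14, 2.44) and GINS3 (0.16, 2.59), and TFPI2 to LHX2 (0.14, -2.12) and LAMB3 (0.15, -2.20). With 2 lines, such nearness is mostly a like difference between them.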

How the data were processed

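The starting point was the table of log2 expression values the authors deposited, with 54675 probe sets on each of 6 arrays and 0 other sample columns. For background correction and normalization, the method was not given in the sources used here. Base 2 was read from the values, which ran from 2.59 to 14.45, and the median standard error of a difference was 0.098. The number of arrays limits the precision. Differences are relative to the rest of each array.

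After 62 control probe sets were left out, probe sets were named from the platform annotation: 41091 had 1 gene symbol, 1801 several and 11721 none. A linear model without covariates was fitted in R 4.3.3 by limma 3.58.1 (lmFit, then eBayes; two-sided p-values), adjusted over 54613 probe sets. The fit was tested on simulated data. Pairs of probe sets were compared with exact permutation in scipy 1.17.1. Where the dimmer line lay at or under 5.18, a fold is the brighter mean against the dimmer arrays raised to 5.18. Promoter windows were looked up for the 8 genes with a probe set and matched 7, all but PLAT.

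Members, lists and markers were chosen with earlier results of these data known. Named genes are every member probe set, 6 genes given whatever their values (1 further gene is not reported here), up to 4 called genes of at least 2-fold difference per direction and list whose higher line reached the median level (5.05), and the 2 nearest genes of 4 members; the SERPINB genes of chromosome 18 were added by position after values were seen. Alternatives were quantile normalization, centring, a filter at the 40th percentile of level, limma-trend, only probe sets with 1 symbol, the replicate number as a block, and leaving out each array.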

Additional observations from a re-analysis of the deposited data

How the results depend on the processing

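Of the 19 probe sets 14 were called. The count was 13 under quantile normalization, with arrays centred and without dim probe sets (of the 17 left), 14 under limma-trend and with 1-symbol probe sets alone, and 11 to 13 when each array was left out. No probe set reversed a call under any of these. The calls of the PLAU, PLAT and TFPI2 probe sets, of SERPINE2 212190_at, SERPINB5 204855_at, TFPI 210665_at and 210664_s_at and HPSE 222881_at held in every alternative. Over all probe sets 19582 were called, and 16878 to 20275 when each array was left out. The count of related genes called was 57, and 47 to 55 likewise. Centring moved the median of all differences by 0.049.

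With the replicate number as a block, 12 of the 19 were called (17443 of all probe sets, 49 related genes). PLAUR 214866_at (-0.28, adjusted p = 0.053) and SERPINB5 1555551_at (0.27, adjusted p = 0.090) lost their calls. Deviations from the line means of same-numbered arrays correlated at -0.006, -0.21 and -0.31, and 0 of 6 arrays correlated best with their own number. The labels do not say that a number marks a shared batch, so the arrays share only a number. With the floor at the median of all probe sets (5.05) in place of 5.18, the lower bound of TFPI 214378_at was 1.17-fold, against 1.07-fold. Detection calls were not used here, and readings near 5.18 cannot be told from background at this signal.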
